A study of Mus musculus with 19 samples.

Results

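Interferon-stimulated genes are the genes that cells switch on when an interferon binds its receptor, and 34 of them were followed here in mouse kidney. They were chosen by name, as listed members of that response, from a table of 40413 genes. All 34 were in the table, and 33 passed the filter on low counts that left 16421 genes for testing. The exception was Oas3, an oligoadenylate synthetase, with 0 to 8 counts per library. The kidneys came from adult mice of a pair of inbred strains, BPH/2J, which is hypertensive, and BPN/3J, its normotensive counterpart. Mice were given Cmpd17b, a small-molecule agonist of formyl peptide receptors, at 50 mg/kg/day by intraperitoneal injection, or vehicle, once daily for 28 days. Polyadenylated RNA was sequenced, 1 library per mouse, and 18 libraries were used: 4 of BPH/2J mice given Cmpd17b, 5 of BPH/2J mice given vehicle, 5 of BPN/3J mice given Cmpd17b and 4 of BPN/3J mice given vehicle. Strain and blood pressure cannot be told apart in this design.

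Type I interferons signal through a receptor made of IFNAR1 and IFNAR2, whose kinases JAK1 and TYK2 activate STAT2. It joins IRF9 in a complex that binds the interferon-stimulated response element (ISRE) in promoters of genes such as Isg15 and the Ifit family. Interferon gamma signals through IFNGR1 and IFNGR2 to the gamma-activated site (GAS) and induces Irf1, the guanylate-binding proteins and the immunity-related GTPases. The products block viral translation and replication, tag or modify proteins, and attack the vacuoles of intracellular pathogens.

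Their promoters were searched for both elements. Promoter windows, 250 bases before to 50 bases after the annotated start, were found for 24 of the 34 members in RefSeq sequence of build GRCm38.p6. The counts were made on another build, GRCm39. An ISRE, searched as TTTC, any 2 bases and TTTC again on both strands, was present in 15 of the 24, or 62.5%, against 3.99% of all 27025 genes with a window. A GAS, searched as TTCNNNGAA on both strands, was present in 7 of the 24, or 29.2%, against 9.55% of all genes with a window. The motifs differ in their letters, and a match is a description of sequence and not evidence of binding. Stretches of 60 bases are printed below 5′ to 3′ on each gene's own strand, with every match of either element in capitals, because they show the element shared by members of different roles. The first 3 belong to Isg15, whose product is a ubiquitin-like modifier, and to Ifit1 and Ifit3, whose products bind RNA, and the next to Rsad2, which encodes viperin.
Isg15 (chr4:156200856-156200915, minus strand, ISRE): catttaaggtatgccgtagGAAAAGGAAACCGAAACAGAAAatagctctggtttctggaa
Ifit1 (chr19:34640769-34640828, plus strand, ISRE): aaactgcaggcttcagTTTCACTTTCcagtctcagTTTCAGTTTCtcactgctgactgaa
Ifit3 (chr19:34583365-34583424, plus strand, ISRE): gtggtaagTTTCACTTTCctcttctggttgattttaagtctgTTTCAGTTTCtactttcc
Rsad2 (chr12:26456538-26456597, minus strand, ISRE): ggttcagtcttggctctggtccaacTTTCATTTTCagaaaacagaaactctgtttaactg
The next 3 are from a guanylate-binding protein gene and a pair of immunity-related GTPase genes, and the last is the GAS of Irf1, a transcription factor that itself acts on many of the others.
Gbp2 (chr3:142620579-142620638, plus strand, ISRE): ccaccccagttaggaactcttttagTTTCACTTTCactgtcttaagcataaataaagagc
Irgm1 (chr11:48871421-48871480, minus strand, ISRE): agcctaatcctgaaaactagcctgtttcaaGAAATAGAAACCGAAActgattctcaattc
Igtp (chr11:58199496-58199555, plus strand, GAS then ISRE): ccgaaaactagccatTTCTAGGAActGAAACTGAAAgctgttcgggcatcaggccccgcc
Irf1 (chr11:53769898-53769957, plus strand, GAS): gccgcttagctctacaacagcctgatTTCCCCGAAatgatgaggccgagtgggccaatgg
In Isg15 and Irgm1 the matches overlap and run together. The window of Ifi35, the member with the largest strain difference among those tested, held no ISRE, and its GAS match began 7 bases after the annotated start.

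Libraries held 21400119 to 40998662 counts each. Kidney tubule and glomerulus markers summed to 8519 to 10260 CPM (the library-size-scaled count, with TMM factors) in every library used, and none of the 14 was at 0. A 19th library, labelled BPH/2J Cmpd17b replicate 1, stood apart and was left out: scaled to its own total, it had the heart myosin gene Myh6 at 14200 CPM, against at most 28.3 CPM in the others, and the proximal tubule transporter gene Slc34a1 at 5.95 CPM, against at least 2202 CPM in the others. It held 6 of the 34 members above, 24 within and 4 below the range of the other libraries, and Iigp1 at 76.25 CPM, against at most 16.1 CPM. The 4 remaining BPH/2J Cmpd17b libraries summed to 119 to 163 CPM over 10 heart muscle markers, against 4.38 to 8.94 CPM in BPH/2J vehicle, 5.03 to 10.5 CPM in BPN/3J Cmpd17b and 5.28 to 9.54 CPM in BPN/3J vehicle libraries. The part of these heart transcripts in any comparison of BPH/2J Cmpd17b kidneys below was not tested.

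**Figure D1:**
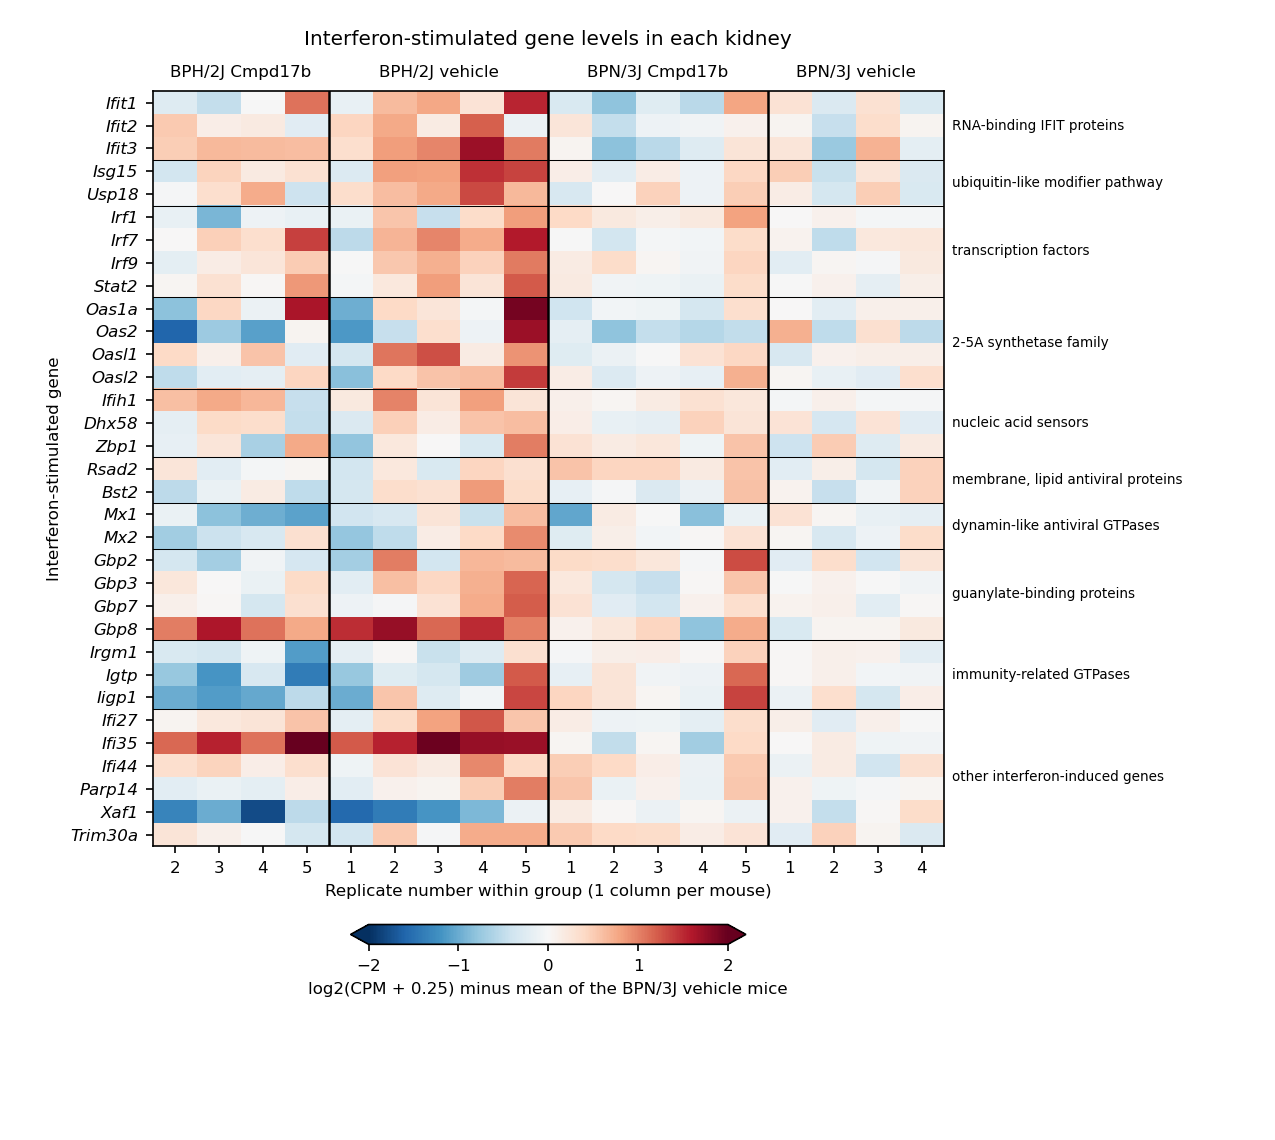
Levels of 33 interferon-stimulated genes (rows, grouped by role) in each mouse (columns), as log2(CPM + 0.25) minus the mean of the 4 BPN/3J vehicle mice. Ifi35 and Gbp8 are red in every BPH/2J mouse, Xaf1 is blue in them, palest in vehicle replicate 5, and BPH/2J vehicle replicate 5 and BPN/3J Cmpd17b replicate 5 stand out as red columns.

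The strain comparison asked how the genes differ between hypertensive and normotensive kidneys, separately in each arm. Under Cmpd17b, 2 members were higher in BPH/2J (Ifi35 and Gbp8) and 2 lower (Xaf1 and Iigp1), by edgeR's quasi-likelihood test at an adjusted p under 0.05. Of all tested genes, 5.71% were called higher and 4.65% lower in that comparison. Under vehicle, 4 were higher (Ifi35, Gbp8, Ifit3 and Irf9) and 1 lower (Xaf1), where 5.82% of all tested genes were called higher and 4.94% lower. Ifi35, Gbp8 and Xaf1 were called in both arms. In bulk tissue, fewer cells of a type and less RNA per cell cannot be told apart.

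Ifi35, which encodes an interferon-induced leucine zipper protein, was the member with the smallest p in both arms. It stood at 9.03, 11.9, 8.64 and 16.3 CPM in BPH/2J mice given Cmpd17b, against 4.06, 2.71, 4.05, 2.33 and 5.26 CPM in BPN/3J mice given Cmpd17b. Under vehicle it stood at 9.55, 11.8, 15.97, 13.7 and 13.6 CPM in BPH/2J mice, against 3.93, 4.43, 3.68 and 3.72 CPM in BPN/3J mice. Every BPH/2J mouse was above every BPN/3J mouse in both arms. The log2 fold change was 1.64 (SE 0.227, adjusted p = 6.64e-05) under Cmpd17b and 1.71 (SE 0.234, adjusted p = 6.94e-05) under vehicle, by edgeR, and the call held without any one library. In RefSeq's gene order on chromosome 11, the nearest tested gene after Ifi35, Vat1, was also higher in BPH/2J (0.44 under Cmpd17b and 0.55 under vehicle on the log2 scale), as was the next, Rnd2 (1.14 and 1.01), both called in both arms. The nearest before it, the ribosomal protein gene Rpl27, was not called in either arm.

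Gbp8 encodes a guanylate-binding protein, one of a family of large GTPases that assemble on pathogen vacuoles. Its levels were 2.48, 3.90, 2.61 and 2.02 CPM in BPH/2J mice given Cmpd17b, against 1.17, 1.33, 1.56, 0.517 and 2.00 CPM in BPN/3J mice given Cmpd17b. In the vehicle arm they were 3.51, 4.25, 2.72, 3.52 and 2.46 CPM in BPH/2J mice, against 0.840, 1.14, 1.16 and 1.29 CPM in BPN/3J mice. The strains did not overlap in either arm, although under Cmpd17b the lowest BPH/2J mouse lay at 2.02 CPM beside the highest BPN/3J mouse at 2.00 CPM. Gbp8 was higher by 1.06 (SE 0.294, adjusted p = 0.0254) under Cmpd17b and by 1.57 (SE 0.304, adjusted p = 0.00204) under vehicle on the log2 scale, by edgeR. Under Cmpd17b the call was lost without BPH/2J Cmpd17b replicate 3 (0.84, adjusted p = 0.103), BPN/3J Cmpd17b replicate 1 (1.02, adjusted p = 0.0566) or BPN/3J Cmpd17b replicate 2 (1.06, adjusted p = 0.0541). It was also lost when only the groups compared were fitted (edgeR adjusted p = 0.087). The other 3 guanylate-binding members, Gbp2, Gbp3 and Gbp7, were not called in either arm. Gbp8 lies on chromosome 5 beside Gbp9, Gbp4 and Gbp10, none of which was called, and on its other side Abcg3, Zfp951 and Gm31255 were all called in both arms. How reads shared by these relatives were divided is not given in the sources used here, so the level of Gbp8 is uncertain to that extent.

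Xaf1, which encodes an interferon-inducible antagonist of the apoptosis inhibitor XIAP, was the member lower in BPH/2J in both arms. Under Cmpd17b it was at 2.58, 3.29, 1.79 and 4.67 CPM in BPH/2J mice, against 7.64, 6.89, 6.25, 7.02 and 6.25 CPM in BPN/3J mice, without overlap. Under vehicle it was at 2.15, 2.43, 2.87, 3.52 and 6.23 CPM in BPH/2J mice, against 7.19, 4.84, 6.88 and 8.84 CPM in BPN/3J mice, where BPH/2J replicate 5 lay above 1 BPN/3J mouse. The log2 fold change was -1.16 (SE 0.295, adjusted p = 0.0149) under Cmpd17b and -1.02 (SE 0.283, adjusted p = 0.0252) under vehicle, by edgeR. The call under Cmpd17b was lost without BPH/2J Cmpd17b replicate 4 (-0.97, adjusted p = 0.052). Under vehicle it was lost without BPH/2J vehicle replicate 1, 2 or 3 or BPN/3J vehicle replicate 1, 3 or 4, at adjusted p from 0.0503 to 0.0837 and log2 fold changes from -1.03 to -0.88, and when only the groups compared were fitted (edgeR adjusted p = 0.0592). The neighbouring gene Slc13a5 was higher in BPH/2J in both arms (3.45 under Cmpd17b and 2.08 under vehicle, both called), opposite in sign to Xaf1.

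Iigp1, an immunity-related GTPase that disrupts pathogen vacuoles in mice, was called lower in BPH/2J under Cmpd17b and not under vehicle. Under Cmpd17b it was at 3.08, 2.80, 3.00 and 4.33 CPM in BPH/2J mice, against 8.62, 7.63, 6.56, 5.80 and 16.6 CPM in BPN/3J mice. Under vehicle it was at 3.05, 9.46, 5.26, 6.07 and 16.5 CPM in BPH/2J mice, against 5.82, 8.09, 4.93 and 6.99 CPM in BPN/3J mice. The groups did not overlap under Cmpd17b, whereas BPH/2J vehicle mice lay on both sides of the BPN/3J vehicle mice. The log2 fold change was -1.46 (SE 0.399, adjusted p = 0.023) under Cmpd17b and 0.32 (SE 0.378, adjusted p = 0.644) under vehicle, and the difference between them, tested as the interaction below, was not called. The call under Cmpd17b was lost without BPH/2J Cmpd17b replicate 2 (adjusted p = 0.0539), 3 (adjusted p = 0.0642) or 4 (adjusted p = 0.0575), or without BPN/3J Cmpd17b replicate 5 (-1.12, adjusted p = 0.0637). By limma-voom it was not called (-1.38, adjusted p = 0.0522). With all 19 libraries in the edgeR fit the log2 fold change was 1.32 and was not called (adjusted p = 0.36).

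Ifit3, of the same family as Ifit1, was at 10, 11.1, 10.98 and 10.8 CPM in BPH/2J mice given Cmpd17b, against 7.26, 3.85, 4.77, 5.80 and 8.42 CPM in BPN/3J mice given Cmpd17b. Under vehicle it was at 8.92, 12.8, 14.1, 23.4 and 14.7 CPM in BPH/2J mice, against 8.34, 4.07, 11.5 and 6.11 CPM in BPN/3J mice. The strains did not overlap under Cmpd17b and overlapped under vehicle, yet only the vehicle difference was called, at 0.98 (SE 0.289, adjusted p = 0.036) against 0.84 (SE 0.286, adjusted p = 0.0736) under Cmpd17b, by edgeR. The vehicle call was lost without BPH/2J vehicle replicate 3 (adjusted p = 0.0528), 4 (0.75, adjusted p = 0.112) or 5 (adjusted p = 0.0543), or BPN/3J vehicle replicate 1 (adjusted p = 0.0695), 2 (0.77, adjusted p = 0.12) or 4 (adjusted p = 0.101). It was also lost without a filter on low counts (edgeR adjusted p = 0.0505) and when only the groups compared were fitted (edgeR adjusted p = 0.0932). Ifit3 has a near-identical copy, Ifit3b, so the division of reads between them is uncertain.

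Irf9, the DNA-binding partner of STAT2, was at 8.57, 10.97, 11.7 and 14.1 CPM in BPH/2J mice given Cmpd17b, against 11, 12.8, 10.1, 9.34 and 13.4 CPM in BPN/3J mice given Cmpd17b. Under vehicle it was at 9.76, 14.4, 16.2, 13.6 and 20.5 CPM in BPH/2J mice, against 8.47, 10.1, 9.64 and 11.3 CPM in BPN/3J mice. The Cmpd17b groups overlapped throughout, and under vehicle 4 of 5 BPH/2J mice were above all BPN/3J mice. The vehicle difference was 0.59 (SE 0.184, adjusted p = 0.0473) and the difference under Cmpd17b -0.004 (SE 0.184, adjusted p = 0.993), by edgeR. The vehicle call was at the border of the threshold: it was lost in 14 of the 18 fits that each left out 1 library, at adjusted p from 0.0522 to 0.146, and held without BPH/2J Cmpd17b replicate 2 or 5, BPH/2J vehicle replicate 1 or BPN/3J Cmpd17b replicate 5. By limma-voom it was not called (0.53, adjusted p = 0.0659), nor by edgeR with DESeq2 size factors, without a filter on low counts or in a fit of only the groups compared, at adjusted p from 0.0509 to 0.084.

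**Figure D2:**
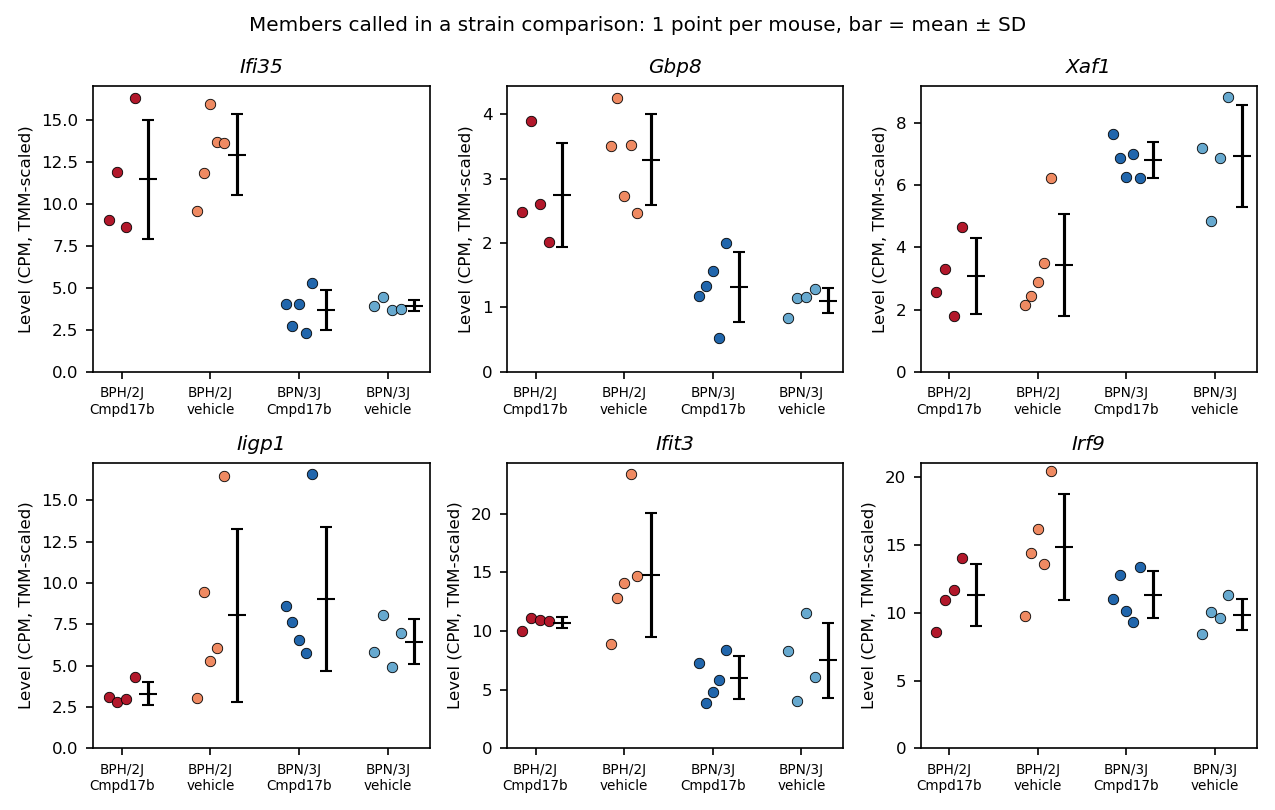
Levels in CPM of the 6 members called in a strain comparison, 1 point per mouse, with bars for the mean ± SD of each group (n = 4, 5, 5 and 4 from left to right). Ifi35 and Gbp8 separate the strains in both arms, and Iigp1 lies between 2.80 and 4.33 CPM in all 4 BPH/2J Cmpd17b mice.

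Over all 33 tested members, the called ones included, fitted differences under vehicle were mostly positive. They were positive in 30 of 33 members and negative in 3, against 54.6% and 45.4% of all tested genes, with a median log2 fold change of 0.52, against 0.04 over all tested genes. At an unadjusted p under 0.05, 14 members were higher and 1 lower, where 13.5% and 10.4% of all tested genes were. Both members of the ubiquitin-like modifier pathway were among them, Isg15 at 1.06 and Usp18, which encodes the protease that removes it, at 0.88. Of the 4 transcription factor genes, Irf7, Irf9 and Stat2 passed the unadjusted threshold, and so did Ifih1, which encodes the RNA sensor MDA5 and had no overlap between strains. Without overlap, 3 members were higher (Ifih1, Gbp8 and Ifi35) and 0 lower, where 6.9% and 6.69% of all tested genes were. The immunity-related GTPases and the Mx genes did not, with log2 fold changes from -0.09 to 0.32. Members share the same mice, so their values are not independent. The count of calls under vehicle moved from 5 to 10 without BPH/2J vehicle replicate 1, the mouse with the lowest levels, and to 3 without BPH/2J vehicle replicate 5, the mouse with the highest. It also moved to 3 without BPH/2J vehicle replicate 2 or 4 or BPN/3J vehicle replicate 2 or 3, and to 2 without BPH/2J vehicle replicate 3 or BPN/3J vehicle replicate 1 or 4. The median fell to 0.32 without BPH/2J vehicle replicate 5. Endothelial marker differences were mostly positive in the same arm: 2 of 11 were called higher (Pecam1 and Esam, lost in 4 and 6 of the fits that left out 1 library) and 10 were positive, with a summed level of 232 to 419 CPM in BPH/2J vehicle mice and 204 to 322 CPM in BPN/3J vehicle mice, and none at 0 in any library. Leukocyte marker differences were positive in 11 of 23 tested and negative in 12, with a median of -0.07. Of them 1 was called higher, Cd8a (1.40, edgeR adjusted p = 0.049), a call lost in 12 of the fits that left out 1 library. The part of either cell type in the result was not tested.

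The members that were called in no comparison and are not given mouse by mouse for another reason are given here by role, with the range over the 18 mice and the log2 fold change between strains under Cmpd17b and under vehicle. Ifit1, which binds viral RNA lacking the host cap modification, ran from 0.913 to 5.54 CPM (0.35 and 0.76), and its relative Ifit2 from 4.62 to 15.2 CPM (0.24 and 0.55). Usp18 ran from 0.577 to 2.50 CPM (0.12 and 0.88). Of the transcription factors, Irf7, which amplifies type I interferon production, ran from 2.69 to 12.4 CPM (0.66 and 0.84) and Stat2 from 11.8 to 31.8 CPM (0.29 and 0.58). Of the oligoadenylate synthetase family, Oas1a gave 0.71 and 0.68, Oasl1 ran from 0.453 to 1.94 CPM (0.23 and 0.91) and Oasl2 from 1.66 to 8.74 CPM (-0.21 and 0.61). Of these 8 members, 8 had a positive difference under vehicle and 7 under Cmpd17b, the exception being Oasl2.

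The sensors Ifih1 (0.31 and 0.57), Dhx58 (-0.06 and 0.38), which encodes a regulator of RNA sensing, and Zbp1 (-0.20 and 0.14), a sensor of Z-form nucleic acid that can start necroptosis, ran from 4.33 to 12.3 CPM, 0.634 to 1.64 CPM and 0.151 to 1.17 CPM. Bst2, which encodes tetherin and holds budding virus at the cell surface, ran from 4.89 to 12.99 CPM (-0.26 and 0.32). Mx2, a dynamin-like GTPase gene, ran from 0.272 to 1.47 CPM (-0.42 and 0.18). Of the guanylate-binding proteins, Gbp3 ran from 3.57 to 11.6 CPM (0.09 and 0.62) and Gbp7 from 5.33 to 16.4 CPM (-0.01 and 0.52). Ifi27 ran from 15.3 to 42.5 CPM (0.25 and 0.63), Ifi44 from 3.87 to 10.1 CPM (0.01 and 0.38), Parp14, which encodes an ADP-ribosyltransferase, from 6.46 to 15.5 CPM (-0.32 and 0.36), and Trim30a, of the tripartite motif family, from 2.39 to 5.45 CPM (-0.35 and 0.38). Of these 11 members, 11 had a positive difference under vehicle and 4 under Cmpd17b.

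Under Cmpd17b the members were divided. The log2 fold change between strains was positive in 15 and negative in 18 (51.5% and 48.5% of all tested genes), with a median of -0.01, against 0.01 over all tested genes, and 3 were higher and 7 lower at an unadjusted p under 0.05, where 13.1% and 10.9% of all tested genes were. Ifit3, Gbp8 and Ifi35 were higher in BPH/2J without overlap, where 6.38% of all tested genes were, and Irf1, Gbp2, Irgm1, Igtp, Iigp1 and Xaf1 were lower without overlap, where 6.37% were. All 3 immunity-related GTPases were among the lower ones. Igtp, which encodes the GTPase IRGM3 of the regulatory class, was at 6.42, 4.77, 8.84 and 4.04 CPM in BPH/2J mice given Cmpd17b, against 9.89, 13.3, 10.6, 10.3 and 24.8 CPM in BPN/3J mice given Cmpd17b, and is given here after its values had been seen. Its log2 fold change was -1.19 (SE 0.385) and was not called by edgeR (adjusted p = 0.0574). DESeq2 called 8 members where edgeR called 4, adding Ifit3, Irf1, Irgm1 and Igtp, while without BPH/2J Cmpd17b replicate 3 edgeR called 2, Ifi35 and Xaf1. Leukocyte marker differences were mostly negative in this arm, with 20 of 23 tested markers negative and a median log2 fold change of -0.65. Of them 2 were called lower, among them Cd3e of the T cell receptor complex, and 1 higher, the neutrophil marker S100a9. The calls of Cd3e and S100a9 were lost in 2 and 6 of the fits that left out 1 library, at edgeR adjusted p of up to 0.0629 for Cd3e and 0.105 for S100a9. Their summed level was 68.3 to 87.2 CPM in BPH/2J mice given Cmpd17b and 79.9 to 111 CPM in BPN/3J mice given Cmpd17b. Between 0 and 2 of the 25 markers were at 0 in a library of either group, and the part of leukocytes in these differences was not tested.

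The treatment comparison asked whether Cmpd17b changed the genes within a strain. No member was called in either strain by edgeR, DESeq2 or limma-voom. In BPH/2J, 0.164% of all tested genes were called higher by edgeR and 0 lower, and in BPN/3J the share called was 0. At an unadjusted p under 0.05, edgeR had 0 members higher and 9 lower in BPH/2J, where 1.32% and 2.39% of all tested genes were, DESeq2 had 11 lower and limma-voom 3. In BPN/3J, 1 was higher and 0 lower by edgeR, where 1.33% and 1.19% of all tested genes were, and DESeq2 and limma-voom had 1 higher each.

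In BPH/2J, the fitted log2 fold changes of Cmpd17b over vehicle were negative for 33 of 33 tested members, and positive for 0, where 51.7% of all tested genes were negative and 48.3% positive. They ran from -1.45 to -0.04, with a median of -0.46, against -0.01 over all tested genes. Each of them rests on the same 4 treated and 5 vehicle mice, and the vehicle mice also enter the strain comparison under vehicle. Treated and vehicle BPH/2J mice overlapped in each of the 33, where 0.451% of all tested genes were higher and 0.481% lower without overlap. Leaving out 1 library at a time left 29 to 33 negative. The median moved to -0.28 without BPH/2J vehicle replicate 5 and to -0.58 without BPH/2J vehicle replicate 1, and the number lower at an unadjusted p to 3 and to 18. That number was also 3 without BPH/2J Cmpd17b replicate 3, 4 without BPH/2J Cmpd17b replicate 2 and 6 when BPH/2J vehicle replicate 4 was dropped. Adding the 19th library, 26 were negative, with a median of -0.23, and 1 was lower at an unadjusted p. The leukocyte markers were mostly negative in the same comparison, 17 of 23 tested with a median of -0.33, and summed to 68.3 to 87.2 CPM in BPH/2J mice given Cmpd17b and 64.65 to 192 CPM in those given vehicle. The endothelial markers were negative in 5 of 11, with a median of 0.03. The part of leukocytes in the members' differences was not tested.

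The 3 members with the smallest p in BPH/2J were Iigp1, Irf1 and Isg15. Iigp1, at the levels given above, had a log2 fold change of -1.29 (SE 0.398, edgeR adjusted p = 0.888). It turned to 1.49 with the 19th library included. Irf1 was at 9, 5.22, 9.34 and 9.05 CPM in BPH/2J mice given Cmpd17b, against 9.19, 14.9, 7.24, 13.0 and 18.2 CPM in those given vehicle. The treated mice lay within the lower part of the vehicle range apart from replicate 3, which lay below it, and the log2 fold change was -0.62 (SE 0.233, edgeR adjusted p = 1). Isg15 was at 0.669, 1.36, 1.09 and 1.21 CPM in BPH/2J mice given Cmpd17b, against 0.725, 1.85, 1.83, 3.01 and 2.77 CPM in those given vehicle. Of the vehicle mice, replicate 1 was below all but 1 of the treated mice and the other 4 were above all of them, and the log2 fold change was -0.91 (SE 0.364, edgeR adjusted p = 1).

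In BPN/3J the fitted differences lay closer to 0. They were positive for 23 members and negative for 10, where 48.9% and 51% of all tested genes were, with a median of 0.09, which became -0.03 with 14 positive when BPN/3J Cmpd17b replicate 5 was left out. Markers of other cells were mostly positive in the same comparison: 19 of 23 leukocyte markers, with a median of 0.36, and 11 of 11 endothelial markers, with a median of 0.35. Of the endothelial markers 4 were higher at an unadjusted p and 3 had no overlap between treated and vehicle mice, none was called by edgeR, and they summed to 288.5 to 360 CPM in BPN/3J mice given Cmpd17b and 204 to 322 CPM in those given vehicle. The leukocyte markers summed to 79.9 to 111 CPM in BPN/3J mice given Cmpd17b and 83.4 to 90.5 CPM in those given vehicle, and the part of either cell type was not tested. The 3 members with the smallest p were Rsad2, Irf1 and Gbp2. Rsad2, which encodes the antiviral enzyme viperin, was at 12.9, 11.6, 11.6, 9.75 and 12.8 CPM in BPN/3J mice given Cmpd17b, against 7.33, 9.26, 6.65 and 11.9 CPM in those given vehicle, with 1 vehicle mouse within the treated range. Its log2 fold change was 0.42 (SE 0.19, edgeR adjusted p = 1). Irf1 was at 13.3, 11.6, 10.9, 11.6 and 17.7 CPM in BPN/3J mice given Cmpd17b, against 10.1, 10.6, 9.74 and 9.78 CPM in those given vehicle. It was the member of this comparison whose groups did not overlap, where 1.03% of all tested genes were higher and 0.755% lower without overlap, and its log2 fold change was 0.37 (SE 0.229, edgeR adjusted p = 1). Gbp2, which encodes a guanylate-binding protein, was at 5.10, 5.01, 4.58, 3.80 and 9.91 CPM in BPN/3J mice given Cmpd17b, against 3.26, 5.01, 2.90 and 4.69 CPM in those given vehicle, and the groups overlapped. Its log2 fold change was 0.52 (SE 0.336, edgeR adjusted p = 1).

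Whether Cmpd17b acted differently in the strains was tested as an interaction, the Cmpd17b log2 fold change in BPH/2J minus that in BPN/3J. No member was called by edgeR, DESeq2 or limma-voom, where edgeR called 0.0304% of all tested genes. At an unadjusted p under 0.05, 0 members were positive and 7 negative by edgeR, where 1.1% and 2.12% of all tested genes were, with 7 negative by DESeq2 and 4 by limma-voom. The 3 with the smallest p were Iigp1 (-1.78, SE 0.549), Irf1 (-0.99, SE 0.326) and Gbp2 (-1.31, SE 0.482), each at an edgeR adjusted p of 1. For Gbp2 the BPH/2J levels were 2.98, 2.31, 3.66 and 3.00 CPM under Cmpd17b, against 2.33, 8.12, 2.95, 6.30 and 6.14 CPM under vehicle, where the treated mice lay within the vehicle range except for replicate 3, just below it. The interaction was negative in 32 of 33 members and positive in 1, where 49.8% and 50.2% of all tested genes were, with a median of -0.52. The interaction was also negative in most leukocyte markers, 21 of 23 with a median of -0.58, and most endothelial markers, 10 of 11 with a median of -0.32, and their part in the members' values was not tested. Over the members it was negative in 24, with a median of -0.30, when the mice with the highest member levels (BPH/2J vehicle replicate 5, BPN/3J Cmpd17b replicate 5) were both left out, an alternative chosen after their levels had been seen. The number negative at an unadjusted p was then 2. Left out one at a time, BPH/2J vehicle replicate 1 gave 13 of these. Without BPH/2J Cmpd17b replicate 3, BPH/2J vehicle replicate 5, BPN/3J Cmpd17b replicate 5 or BPN/3J vehicle replicate 3 there were 3.

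Averaged over both strains, the Cmpd17b effect was called in 0 members by edgeR, DESeq2 and limma-voom, where edgeR called 0.067% of all tested genes. At an unadjusted p, 0 members were higher and 2 lower by each of the 3 tools, where edgeR had 1.53% of all tested genes higher and 1.91% lower. The averaged effect was negative in 29 members and positive in 4, where 52.5% and 47.5% of all tested genes were. Of the leukocyte markers 14 of 23 were negative, with a median of -0.01, and of the endothelial markers 1 of 11, with a median of 0.18. Those with the smallest p were the RNA-activated synthetase gene Oas2 (-1.10, SE 0.417), the antiviral dynamin-like GTPase gene Mx1 (-0.91, SE 0.411) and Ifit3 (-0.39, SE 0.202), each at an edgeR adjusted p of 1. Oas2 was at 0.201, 0.568, 0.389 and 1.15 CPM in BPH/2J mice given Cmpd17b, against 0.363, 0.733, 1.46, 1.01 and 4.195 CPM in those given vehicle. In BPN/3J it was at 0.951, 0.526, 0.726, 0.665 and 0.713 CPM under Cmpd17b, against 1.98, 0.704, 1.44 and 0.697 CPM under vehicle. The groups overlapped in both strains, and these levels rest on 6 to 97 counts per library. Mx1 rested on 1 to 17 counts per library. It was at 0.335, 0.114, 0.0779 and 0.0577 CPM in BPH/2J mice given Cmpd17b, against 0.242, 0.264, 0.522, 0.225 and 0.735 CPM in those given vehicle, and in BPN/3J at 0.0634, 0.470, 0.391, 0.111 and 0.340 CPM under Cmpd17b, against 0.538, 0.410, 0.330 and 0.322 CPM under vehicle. Treated and vehicle mice overlapped in both strains.

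**Figure D3:**
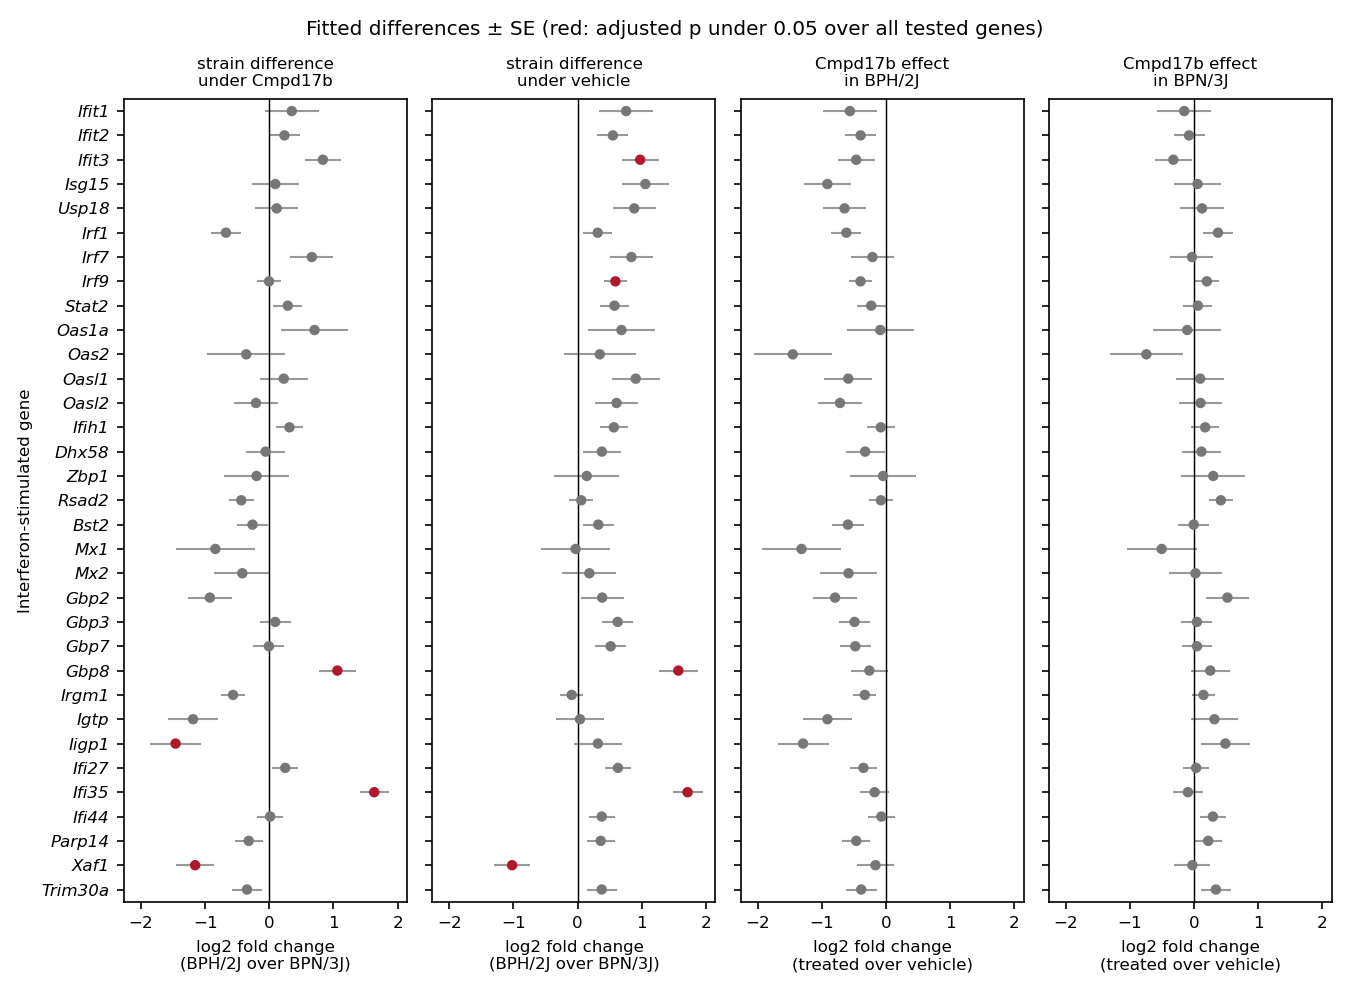
Log2 fold change ± SE of 33 members in the strain comparison of each arm (BPH/2J over BPN/3J) and in the Cmpd17b comparison of each strain (Cmpd17b over vehicle), with members called at an adjusted p under 0.05 in red. In BPH/2J all 33 values lie below 0, between -1.45 and -0.04, and none is called.

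In BPH/2J vehicle and BPN/3J Cmpd17b, members tended to be high or low together in some mice. In BPN/3J vehicle the members' median deviations from the group mean ran from -0.025 to 0.037 (log2 scale), but replicate 2 was split. It was highest of its group in 33.3% of the members and lowest in 36.4%, where 21.1% and 20.5% of all tested genes were. Its median deviation was 0.102 over Irf1 and the guanylate-binding and immunity-related GTPase members (8 in all), and -0.215 over the other 25. BPH/2J vehicle replicate 5 had the highest level of its group in 20 of 33 members (60.6%), and in 17.9% of all tested genes, and its median deviation from the group mean was 0.52 on the log2 scale over the members. BPH/2J vehicle replicate 1 had the lowest level in 28 of 33 members (84.8%), and in 26.9% of all tested genes, with a median deviation of -0.60. BPN/3J Cmpd17b replicate 5 was highest in 24 of 33 (72.7%), and in 32.7% of all tested genes, with a median deviation of 0.34. In each of these mice the median over all tested genes lay between -0.02 and 0.01. The leukocyte markers moved the same way as the members in each, by 0.32, -0.45 and 0.32 in that order. The endothelial markers gave -0.23, -0.40 and 0.09, opposite to the members in BPH/2J vehicle replicate 5. Other mice had high leukocyte markers without high members. The leukocyte median was 0.475 in BPH/2J vehicle replicate 2 and 0.316 in BPN/3J vehicle replicate 4, where the members' medians were -0.009 and 0.033. The part of either cell type was not tested.

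Some members stood far above their group mates in single mice, and those given here were picked after their values had been seen. In BPH/2J vehicle replicate 5, Oas2 was at 4.195 CPM, 4.71 times the mean of its group mates. Oas1a, a synthetase of the same family, was at 7.01 CPM, 4.21 times theirs, and Igtp at 26.1 CPM, 3.36 times theirs. Iigp1 was at 16.5 CPM, 2.76 times theirs. In BPN/3J Cmpd17b replicate 5, Ifit1 was at 3.26 CPM (2.66 times the mean of its group mates), Iigp1 at 16.6 CPM (2.32 times), Igtp at 24.8 CPM (2.25 times) and Gbp2 at 9.91 CPM (2.14 times), while Oas2 was at 0.713 CPM, within the range of its group. BPH/2J Cmpd17b replicate 5 was mixed: it was highest of its group in 16 members (48.5%), where 39.1% of all tested genes were, and lowest in 10 (30.3%), where 39.7% were. Oas1a was at 5.71 CPM, 3.67 times its group mates, and among the lowest were Igtp at 4.04 CPM and Irgm1 at 14.2 CPM. Irgm1, a regulatory immunity-related GTPase, was at 25.2, 24.3 and 29.4 CPM in the other mice of that group. Oas1a has close relatives, Oas1g among them, so its reads may be divided uncertainly.

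**Figure D4:**
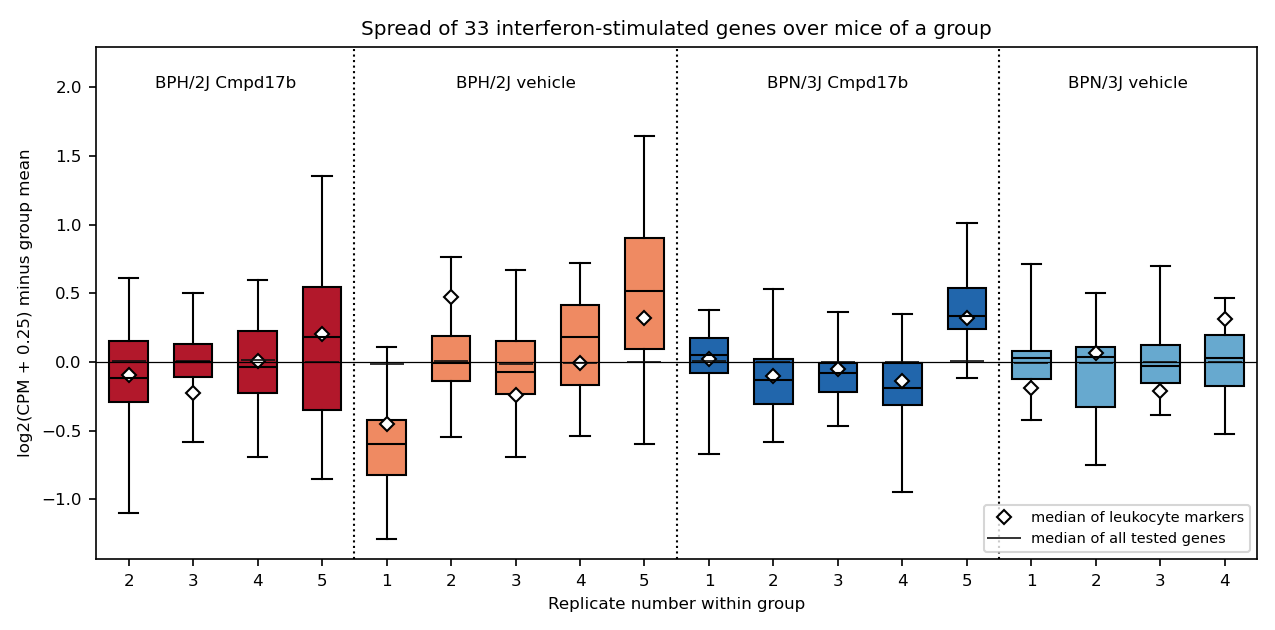
Deviation of 33 members from their group mean in each mouse, as log2(CPM + 0.25), with boxes for the quartiles, a line for the median and whiskers to the lowest and highest member. Diamonds mark the median of the leukocyte markers and dashes that of all tested genes. BPH/2J vehicle replicate 1 lies lowest, with a median of -0.60, and BPH/2J vehicle replicate 5 highest, with a median of 0.52.

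Upstream of the members, none of the 10 interferon ligand genes listed passed the filter. Of these, 7 had no count in any of the 18 libraries, and the highest count of any ligand gene in a library was 8, for Ifng, so the ligands were not measurable at this depth. All 6 receptor genes were tested. Ifnar1 averaged 33.6 ± 2.59, 35.8 ± 1.89, 39.3 ± 2.57 and 41.1 ± 2.03 CPM (SD) in BPH/2J Cmpd17b, BPH/2J vehicle, BPN/3J Cmpd17b and BPN/3J vehicle mice (n = 4, 5, 5 and 4). It was not called, at -0.23 (edgeR adjusted p = 0.0958) under Cmpd17b and -0.20 (edgeR adjusted p = 0.147) under vehicle between strains. In the same order of groups, Ifnar2 averaged 17.5 ± 1.29, 18.8 ± 2.77, 18.8 ± 2.40 and 17.2 ± 3.76 CPM, and it was not called in any comparison. Ifngr1 averaged 19.9 ± 3.53, 22.9 ± 5.46, 24.0 ± 3.00 and 23.6 ± 1.81 CPM, and Ifngr2 14.9 ± 4.17, 14.98 ± 6.77, 16.5 ± 1.85 and 14.6 ± 2.08 CPM, and neither was called. Il10rb, which encodes a chain shared by the receptors of interferon lambda and interleukin 10, was called lower in BPH/2J in both arms, at -0.72 (SE 0.123, adjusted p = 0.000572) under Cmpd17b and -0.58 (SE 0.12, adjusted p = 0.00356) under vehicle by edgeR. It averaged 18.01 ± 1.82 CPM in BPH/2J Cmpd17b mice, 21.1 ± 3.02 CPM in BPH/2J vehicle mice, 29.7 ± 2.80 CPM in BPN/3J Cmpd17b mice and 31.6 ± 3.91 CPM in BPN/3J vehicle mice.

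Among 11 genes of receptor signalling, all tested, 0 were called under Cmpd17b between strains and 1 lower under vehicle, where 4.94% of all tested genes were. That gene was Irf8, a transcription factor of myeloid cells, at -0.65 (SE 0.166, adjusted p = 0.0143), with 7.59 ± 1.85 CPM in BPH/2J vehicle mice and 11.9 ± 1.34 CPM in BPN/3J vehicle mice (SD, n = 5 and 4). The call was lost without BPN/3J vehicle replicate 3 (-0.61, adjusted p = 0.0533). Of 20 genes of nucleic acid sensing upstream of interferon, 19 were tested and 0 were called between strains in either arm, with 1 higher and 0 lower at an unadjusted p under Cmpd17b, where 13.1% and 10.9% of all tested genes were, and 4 higher and 0 lower under vehicle, where 13.5% and 10.4% were. No gene of these 3 lists was called for Cmpd17b in either strain.

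A list of 80 further interferon-induced genes outside the members, of which 74 were tested, had 5 called higher and 7 lower in BPH/2J under Cmpd17b, where 5.71% and 4.65% of all tested genes were, and 7 higher and 0 lower under vehicle, where 5.82% and 4.94% were. Sp110, a nuclear body protein gene, and Ifitm2, which encodes a protein that blocks viral entry, were called higher in both arms by edgeR. Their log2 fold changes were 1.05 and 1.09 for Sp110 and 0.62 and 0.73 for Ifitm2, under Cmpd17b and under vehicle. Eif2ak2, which encodes the RNA-activated kinase PKR, was called higher under Cmpd17b (0.62, adjusted p = 0.00694), and Lgals3bp, which encodes a galectin-binding glycoprotein, under vehicle (0.77, adjusted p = 0.00489).

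Called lower under Cmpd17b were Gbp6 (-2.25, SE 0.481, adjusted p = 0.00413) and Tgtp1 (-2.05, SE 0.461, adjusted p = 0.00628), which encode GTPases of the guanylate-binding and immunity-related families. Gbp6 was at 1.82 ± 0.181 CPM in BPH/2J Cmpd17b mice and 8.66 ± 5.15 CPM in BPN/3J Cmpd17b mice (SD, n = 4 and 5), and Tgtp1 at 2.47 ± 0.775 CPM and 10.1 ± 4.30 CPM in these groups. Under vehicle neither was called, at -0.69 (edgeR adjusted p = 0.361) for Gbp6 and 0.04 (edgeR adjusted p = 0.962) for Tgtp1. For Cmpd17b in BPH/2J, 0 of the 74 were called by edgeR, with 0 higher and 8 lower at an unadjusted p, where 1.32% and 2.39% of all tested genes were. A negative log2 fold change was found in 61, with a median of -0.19, where 51.7% of all tested genes were negative. In BPN/3J 0 were called, with 2 higher and 1 lower at an unadjusted p, where 1.33% and 1.19% of all tested genes were, and 51 were positive, where 48.9% were, with a median of 0.14. Gbp6 and Tgtp1 have close relatives in their families, and how shared reads were divided is not given in the sources used here.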

How the data were processed

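The authors deposited 1 table of estimated counts (expected counts) per gene, named by symbol, for kidney libraries of 19 mice. Between 4.63% and 10.1% of values in a library were not whole. Trimming used Trim Galore 0.6.7 and alignment to GRCm39 used STAR 2.7.9a, per the submitters' processing notes. For the counting tool, its annotation and its handling of shared reads and of strand, the answer is not given in the sources used here. All libraries carry batch label 2.

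Counts were rounded and fitted in 1 model of 4 groups without covariates in edgeR 4.0.16 under R 4.3.3 (quasi-likelihood F-test, robust, TMM factors, filterByExpr with a minimum count of 10 and total of 15), with Benjamini-Hochberg adjustment over all 16421 tested genes. Calls were made at an adjusted p under 0.05. The standard error is the log2 fold change divided by the square root of F. Library totals, 21400119 to 40998662, set the precision, and the biological coefficient of variation was 0.251. No pair of libraries of a group was a duplicate (chi-square per degree of freedom at least 10.3). P-values treat each mouse as a replicate.

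The 34 members and all gene lists were chosen with earlier results of these data known. All members are accounted for. Values per mouse are given for members called in any comparison and, in Cmpd17b comparisons with none, the 3 with the smallest p. From other lists, up to 4 called genes with the smallest p per comparison are named, and Ifnar1, Ifnar2, Ifngr1 and Ifngr2 always. A few genes under this rule were left out of the text. Alternatives were DESeq2 1.42.0, limma-voom (limma 3.58.1), DESeq2 size factors, no filter, at least 1 CPM in 4 or more libraries, a fit without robust estimation, a fit of only the groups compared, all 19 libraries and leaving out each library. One more, leaving out both libraries with the highest member levels, was chosen after seeing the data. RefSeq annotation of another build gave names, gene order and promoter sequence.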

Additional observations from a re-analysis of the deposited data

Results flagged for a closer look

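Each member was checked in each group for a mouse far from the others by Dixon's criterion, on untransformed CPM. Chance meets it in about 1 in 20 groups where values are normally distributed and independent. CPM need not be normally distributed and the members share the same mice, so the checks cannot be set against that rate. The criterion was met in 12 of 132 checks, over 11 members. Of these, 6 were in BPN/3J Cmpd17b replicate 5, all high: Ifit1 at 3.26 CPM (0.913 to 1.45 CPM in the other mice of its group), Bst2 at 10.7 CPM (5.75 to 7), Gbp2 at 9.91 CPM (3.80 to 5.10), Irgm1 at 43 CPM (30.5 to 33.9), Igtp at 24.8 CPM (9.89 to 13.3) and Iigp1 at 16.6 CPM (5.80 to 8.62). BPH/2J vehicle replicate 5 was far above its group in 3: Oas1a at 7.01 CPM (0.725 to 2.29), Oas2 at 4.2 CPM (0.363 to 1.46) and Igtp at 26.1 CPM (6.44 to 9.32). The others were Irf1 in BPH/2J Cmpd17b replicate 3, low at 5.22 CPM (9 to 9.34), Oasl1 in BPN/3J vehicle replicate 1, low at 0.471 CPM (0.703 to 0.731), and Ifih1 in BPN/3J vehicle replicate 2, high at 6.48 CPM (5.89 to 5.95). No member's Cmpd17b effect was called different between strains by edgeR's interaction test.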

How the results depend on the processing

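Members called between strains under Cmpd17b numbered 4, with 8 by DESeq2, 2 with all 19 libraries and 2 to 6 when 1 library was left out. Under vehicle they numbered 5, with 7 by DESeq2, 4 by limma-voom and with DESeq2 size factors, 3 without a filter, 1 with all 19 libraries, 2 with only the compared groups, 3 without both libraries of the highest levels, and 2 to 10 when 1 was left out. Counts for Cmpd17b were 0 under every alternative run. Log2 fold changes that reversed did so with all 19 libraries: under Cmpd17b between strains, Iigp1 to 1.32, Il10rb to 0.16 and Gbp6 to 1.10, and Iigp1 also to 1.49 for Cmpd17b in BPH/2J and to 1.002 for the interaction. The calls of Gbp8 and Xaf1 in both arms and of Ifit3 and Irf9 under vehicle were also lost with all 19 libraries. So were the vehicle calls of Il10rb, Irf8, Sp110, Cd8a, Pecam1 and Esam, at edgeR adjusted p from 0.0632 to 0.635. The cause was not tested. Of the other values of named genes under alternatives, 990 kept their direction and side of the threshold and 125 kept their direction but lost the call. No paired analysis was possible because the labels give animal numbers, not replicate numbers shared by groups. Depth limits Oas3, Mx1 and the interferon ligands.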
